A study of Mus musculus with 3 samples.

Results

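Iron storage, iron export and heme transport were examined through 4 genes in a map of tethered Nrf2-MafG binding. The members are the ferritin genes Fth1 and Ftl1, the iron exporter gene Slc40a1 and the heme transporter gene Slc48a1. They were taken by position, as every summit inside a fixed mm9 window for each gene. A summit is the base of highest signal in a peak called by the authors. The windows held 5 of the 182 summits of the vehicle list and 5 of the 1246 summits of the diethyl maleate (DEM) list. The genes were selected on the presence and score of their summits in these same lists, so presence, score and rank are given as a description and carry no test.

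The study mapped binding with an anti-MafG antibody in mouse embryonic fibroblasts of the genotype MafF-/-::MafG-/-::MafK-/-:T-NG2. T-N2G, as the titles and the design text spell it, is Nrf2 tethered to MafG, and the cells that carry it lack the MafF, MafG and MafK genes. Vehicle-treated cells and cells given 100 µM DEM for 4 hours gave 1 list each, and an input DNA library of the same genotype entered no result here. All groups share the 3 deletions and the construct. The labels name neither the promoter that drives the construct nor whether the cells are 1 clone. Summit lists hold no expression values, so the labelled cell type could not be checked against markers. The read depth of both libraries is unknown and neither condition has a replicate, so no value below has an error.

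Ferritin is the protein shell in which cells store iron, built from the heavy chain encoded by Fth1, which oxidises ferrous iron, and the light chain encoded by Ftl1, which aids the formation of the mineral core. Slc40a1 encodes ferroportin, which carries ferrous iron out of the cell, and Slc48a1 encodes HRG1, which moves heme out of endosomes and lysosomes into the cytosol. Nrf2 is activated by electrophiles such as DEM and pairs with a small Maf protein to bind antioxidant response elements, and ferritin genes are known among its targets. The mRNAs of Fth1, Ftl1 and Slc40a1 are also controlled after transcription by iron regulatory proteins.

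The stretches before the gene starts that RefSeq lists for the ferritin genes are shown here because they let the start regions of the iron storage genes be searched for the element that Nrf2 and small Maf proteins bind. Each line is the 250 bases before a start, 5′ to 3′ on the gene's strand in GRCm38.p6, with TGAC or its reverse complement GTCA in capitals, the letters with which the core of the antioxidant response element opens. The coordinates belong to GRCm38.p6 and cannot be set against the mm9 summit positions.
Ftl1, chr7:45459887-45460136, minus strand: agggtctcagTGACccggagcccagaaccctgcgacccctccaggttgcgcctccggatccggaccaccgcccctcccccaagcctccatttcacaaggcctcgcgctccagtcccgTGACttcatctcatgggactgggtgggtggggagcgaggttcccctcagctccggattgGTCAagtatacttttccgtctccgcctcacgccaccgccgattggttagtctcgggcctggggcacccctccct
Fth1, upstream start, chr19:9980350-9980599, plus strand: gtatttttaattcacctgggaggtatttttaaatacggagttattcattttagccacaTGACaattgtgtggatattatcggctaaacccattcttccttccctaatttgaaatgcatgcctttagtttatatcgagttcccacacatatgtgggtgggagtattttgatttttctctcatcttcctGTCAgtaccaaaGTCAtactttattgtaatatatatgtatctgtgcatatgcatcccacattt
Fth1, downstream start, chr19:9982396-9982645, plus strand: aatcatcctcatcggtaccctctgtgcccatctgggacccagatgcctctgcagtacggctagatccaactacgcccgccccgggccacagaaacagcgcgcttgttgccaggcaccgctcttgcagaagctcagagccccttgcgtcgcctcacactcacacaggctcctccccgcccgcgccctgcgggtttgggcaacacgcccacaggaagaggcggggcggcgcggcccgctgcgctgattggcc

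The Ftl1 stretch and the upstream Fth1 stretch each held 3 TGAC or GTCA tetramers, and the downstream Fth1 stretch held 0. Such a tetramer stands in 80.2% of the 32851 stretches of this length in the table. The longer core TGACNNNGC, searched on both strands, stood in 0 of these 3 stretches and in 10.2% of all stretches. The same core with an A after it stood in 0 of the 3 and in 2.47% of all. The downstream Fth1 stretch and the Ftl1 stretch were rich in G and C (66.8% and 65.2%), against 34.8% before the upstream Fth1 start. These counts say only which letters stand in these stretches. The sequence under the summits was not searched, so the absence of the core here says nothing about it.

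Every one of the 4 windows held a summit in both lists. Cut into 100-kb tiles up to the last summit on each chromosome, the genome had a vehicle summit in 0.692% of tiles and a DEM summit in 4.35%. As the windows were chosen with the summits known, nothing is read from this difference. The Fth1, Ftl1 and Slc48a1 windows held 1 summit per list, and the Slc40a1 window held 2 per list. All 5 DEM summits had a vehicle summit within 100 bp, as had 14.4% of the whole DEM list. The lowest of the 5 by DEM score ranked 64 in the whole DEM list and 62 among DEM summits with such a partner. Nearly all DEM summits with scores this high thus had a vehicle partner, so this is not particular to the 4 genes. The reverse held for all 5 vehicle summits and for 98.9% of the whole vehicle list.

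**Figure D1:**
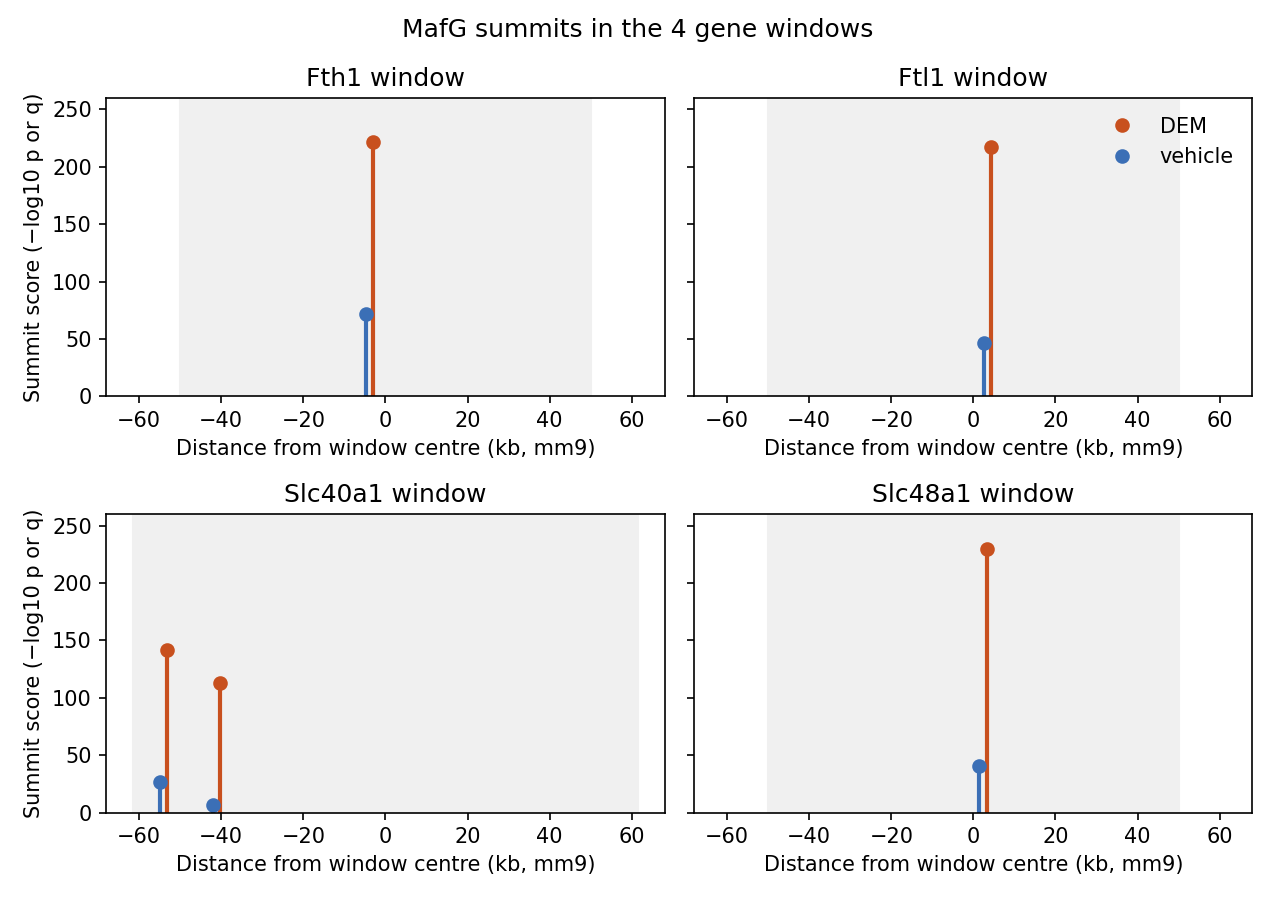
Summits in the 4 gene windows by distance from the window centre (x axis, kb in mm9) and deposited score (y axis, −log10 of a p or q value); blue points are the vehicle list, orange points the DEM list, and the grey band is the window. Points are moved 0.9 kb to the left (vehicle) or right (DEM) so that both lists show; Slc40a1 is the only window with 2 sites, and both lie on its low-coordinate side.

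The summits in the windows of the iron storage genes stood near the top of both lists. Where a gene is ranked below, its name stands for the summit in its window. The score of a summit is the −log10 of the p or q value from the peak caller. It grows with read depth, so it orders summits within a list and does not compare levels between lists. The Fth1 summit lay on chromosome 19 at 10053094 in the vehicle list, with a score of 72.2 and rank 5 of 182. In the DEM list it lay at 10053131, 37 bp away, with a score of 221.8 and rank 11 of 1246. The site in the Fth1 window was thus among the strongest called sites both with and without the electrophile. Its neighbours in the vehicle ranking scored 91.7 and 71.1, and those in the DEM ranking 226.7 and 221.1.

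The Ftl1 summit lay on chromosome 7 at 52716376 with vehicle, with a score of 46.7 and rank 11. With DEM it lay at 52716356, 20 bp away, with a score of 217.4 and rank 14. The heavy and light chain genes of ferritin therefore stood 6 ranks apart with vehicle and 3 ranks apart with DEM, in the same order. The DEM summits ranked directly above and below the Ftl1 site scored 220.3 and 210.6.

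The window of the heme transporter gene Slc48a1 held the highest DEM score of the 4 windows. Its summit lay on chromosome 15 at 97617309 with vehicle (score 40.9, rank 15) and at 97617310 with DEM (score 230.03, rank 9). The summits stood 1 bp apart, the closest agreement among the 5 sites, against a median of 17.5 bp and quartiles of 6 and 34.25 bp over the 180 sites shared by the lists. The Ftl1 and Slc40a1 distances lay between these quartiles, and the Fth1 distance of 37 bp lay above the upper one. Slc48a1 ranked below both ferritin genes with vehicle and above both with DEM. The 3 DEM scores lay between 217.4 and 230.03, and with 1 library the order among them has no replicate check.

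**Figure D2:**
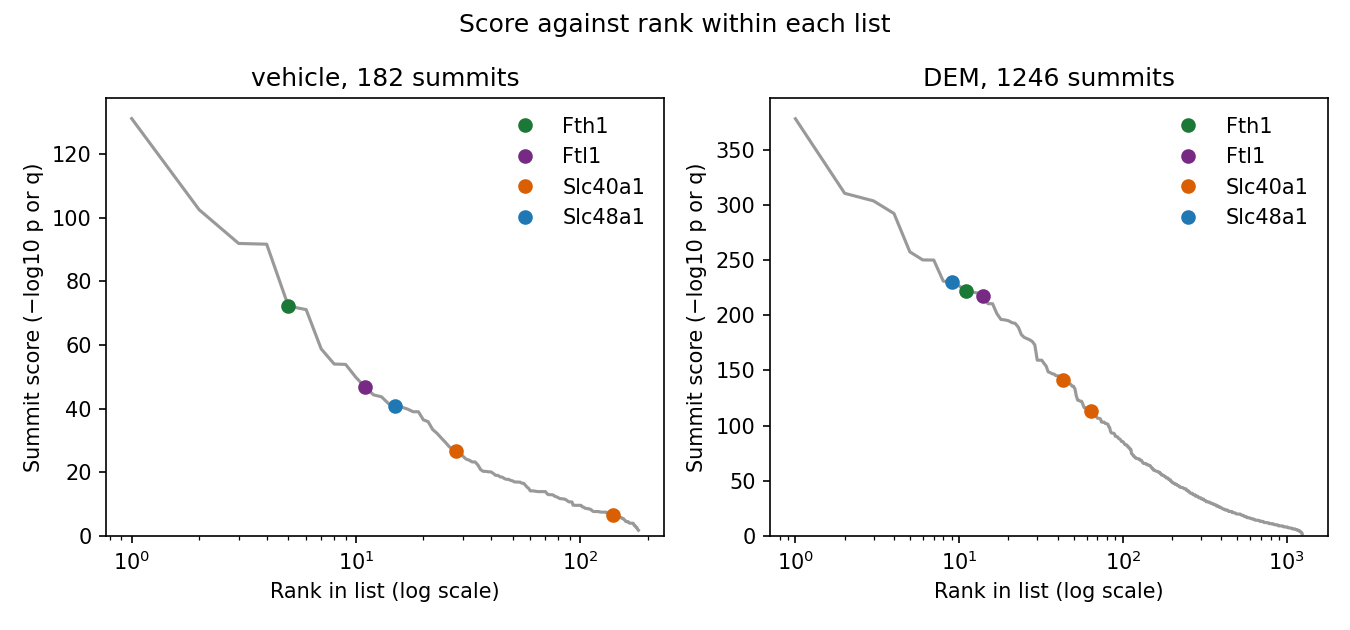
Score (y axis, −log10 of a p or q value) against rank on a log scale (x axis) for all 182 vehicle summits (left) and all 1246 DEM summits (right), with the sites of the 4 genes in colour. The Fth1, Ftl1 and Slc48a1 sites rank 5 to 15 with vehicle and 9 to 14 with DEM, while the 2 Slc40a1 sites rank 28 and 140 with vehicle and 43 and 64 with DEM.

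The window of the iron exporter gene Slc40a1, which is wider than the others, held a pair of sites, both with lower scores. The first lay on chromosome 1 at 45917395 with vehicle (score 26.7, rank 28, a score it shared with 1 other summit) and at 45917385 with DEM (score 141.7, rank 43). The second lay at 45930281 with vehicle (score 6.60, rank 140) and at 45930305 with DEM (score 113.2, rank 64). The vehicle and DEM summits stood 10 bp apart at the first site and 24 bp apart at the second. With vehicle the second site was below the list's median score of 10.6, and it was the only one of the 5 sites there. With DEM all 5 sites were above the median of 15.2, and the lowest of them lay 5.14% from the top of the list. Nearly all sites shared by the lists were above this median too: the one ranked 178 of 180 by DEM score scored 19.0. A place above the DEM median is therefore not particular to these sites.

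The Slc40a1 sites were 12886 bp apart in the vehicle list and 12920 bp apart in the DEM list. In the vehicle list this was the second closest of 162 neighbouring pairs on a chromosome. Of those pairs, 3 (1.85%) lay within 20 kb, and the next closest pair after them was 115843 bp apart. In the DEM list 68 of 1226 neighbouring pairs (5.55%) lay within 20 kb, and the Slc40a1 pair was number 50 by closeness. Pairs within 20 kb were thus a small share of both lists. The DEM list held more of them, but it is also longer, with 1246 summits against 182.

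The summits stood differently in their windows. The Fth1 summits stood at -3.91 kb (vehicle) and -3.87 kb (DEM) from the window centre, at lower coordinates. The Ftl1 summits stood at 3.38 and 3.36 kb, at higher coordinates, and the Slc48a1 summits at 2.31 kb in both lists. Fth1 is listed on the plus strand and Ftl1 on the minus strand, so the ferritin offsets point the same way along the gene. Distances to the gene starts were not measured. The Slc40a1 summits lay far from the centre of their window, which is wider (123 kb against 100 kb). The first stood at -54.1 kb in both lists, and the second at -41.2 kb. The first lay 7.4 kb inside the edge of the window, so its membership depends on the window width. A window of 100 kb with the same centre would leave it out and hold the second site alone. With windows narrowed to 0.5 times their width, the Slc40a1 window held 0 summits and 3 summits were left in each list.

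The nearest summits outside the windows are given next. In the DEM list, the nearest summit beyond the edge was 85.6 kb above the Ftl1 window (score 7.96, rank 972). The next nearest were 105.03 kb above the Fth1 window (score 5.82, rank 1131), 152.7 kb below the Slc48a1 window (score 8.92, rank 895) and 247.5 kb below the Slc40a1 window (score 30.6, rank 328). Apart from the last, these scores were below the DEM list's median of 15.2. In the vehicle list the nearest summit outside any of the 4 windows was 2877 kb below that of Fth1 (score 8.66, rank 105). Such distances were not large for the DEM list: of its 1226 neighbouring pairs, the 132206 bp between the Ftl1 site and the next summit was number 229 by closeness, and the 158898 bp between the Fth1 site and the next was number 253.

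A summit in a window is not assigned to a gene by its position alone, since gene coordinates in mm9 were not used here. RefSeq's GRCm38.p6 table lists 2 other protein-coding genes within 50 kb of Fth1 (Best1 and Rab3il1), 2 near Slc48a1 (Rapgef3 and Hdac7) and 0 near Slc40a1. Around Ftl1 it lists 9: Kcna7, Ntf5, Lhb, Ruvbl2, Gys1, Bax, Dhdh, Tulp2 and Nucb1. Ftl1 thus had the most protein-coding neighbours of the 4 genes. These counts are taken around each gene and not around its summits. Both Slc40a1 summits lay on the low-coordinate side of their window, and the next protein-coding gene listed at coordinates below Slc40a1 is Wdr75. How near Wdr75 lies to these summits was not measured, so the count of 0 does not make their assignment to Slc40a1 more certain.

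The places of the 5 sites were then set side by side over the 180 sites called in both lists, ranked once by vehicle score and once by DEM score. These ranks have the same length, unlike those of the full lists. Slc48a1 ranked 15 by vehicle and 9 by DEM score, Fth1 ranked 5 and 11, and Ftl1 ranked 11 and 13. These differences of 6, 6 and 2 places were below the lower quartile of 9.75 places over all shared sites. Small differences were usual at the top of the order, where 11 of the 15 sites ranked highest by vehicle score, these 3 included, differed by 8 places or fewer. Of the 20 shared sites nearest by vehicle rank, 5 ranked higher by DEM score than Slc48a1, 8 higher than Fth1 and 10 higher than Ftl1. The first Slc40a1 site ranked 27 by vehicle and 41 by DEM score, a difference of 14 places against a median of 24.5 places, and 12 of the 20 sites nearest to it ranked higher by DEM score. The sites of Fth1, Ftl1 and Slc48a1 thus held nearly the same place in both orders.

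The second Slc40a1 site stood apart from the other 4. It ranked 139 by vehicle and 62 by DEM score, 77 places higher with DEM. Counting itself, 10 of the 180 shared sites rose by at least as many places and 16 differed by as many in either direction, against an upper quartile of 42 places and a largest difference of 119. The 20 shared sites nearest to it by vehicle rank had DEM ranks from 48 to 164, with a median of 117, and 2 of them ranked higher than it. The 2 Slc40a1 sites were 112 places apart by vehicle score and 21 places apart by DEM score. Vehicle scores were packed closely in this part of the full vehicle list, with 7.59 at rank 115 and 6.28 at rank 145. The vehicle rank of the second site therefore rests on small score differences. A site near the bottom of one order has more room to rise than to fall, and how far such ranks spread between replicates of a condition is unknown.

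**Figure D3:**
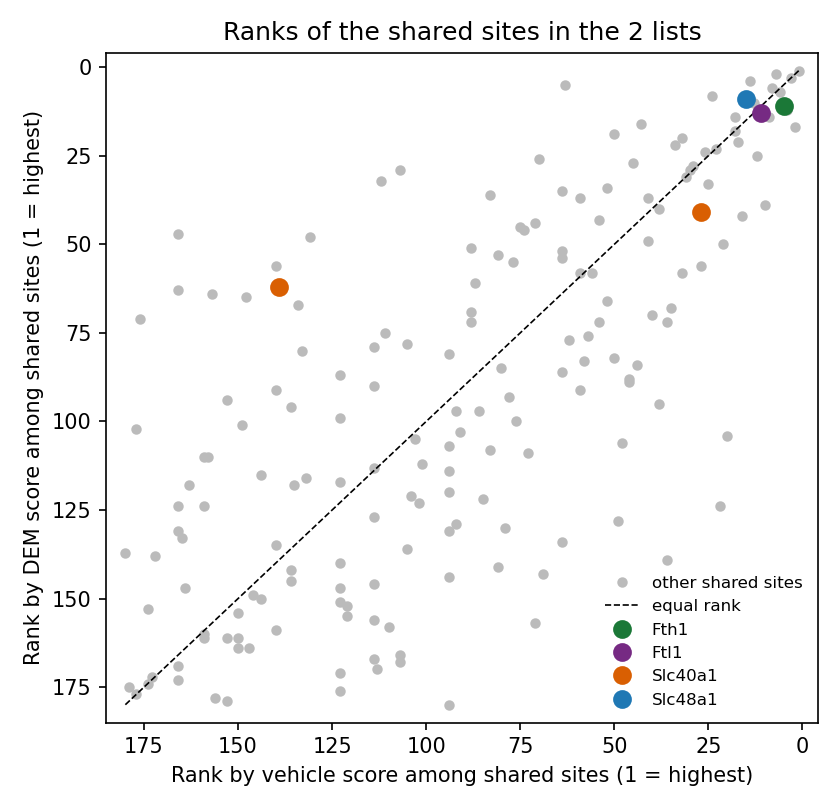
Rank by vehicle score (x axis) against rank by DEM score (y axis) for the 180 sites called in both lists, with rank 1 at the upper right; grey points are other sites, coloured points the sites of the 4 genes, and the dashed line marks equal rank. Fth1, Ftl1 and Slc48a1 lie close to the line in the upper right corner, and the second Slc40a1 site lies well above it at vehicle rank 139 and DEM rank 62.

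The shared sites with the most similar pair of ranks, measured as the sum of the differences in vehicle and in DEM rank, are named by position. For Fth1 they were on chromosome 2 at 167590855 (sum 2) and 76546760 (sum 5). For Ftl1 they were on chromosome 6 at 5380171 (sum 3) and chromosome 9 at 122380922 (sum 5). The chromosome 9 site was also the most similar to Slc48a1 (sum 3), followed by chromosome 3 at 107626371 (sum 6). That site was the nearest counterpart of the heme transporter gene and the second nearest of the ferritin light chain gene.

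For the first Slc40a1 site the most similar were on chromosome 3 at 107816328 (sum 10) and, tied, chromosome 2 at 5536169 and 118485021 (sum 12 each). For the second they were on chromosome 13 at 27822330 (sum 7) and chromosome 19 at 47356866 (sum 10), which rose by 84 and 67 places. They were chosen for these ranks, so their rise adds nothing to that of the Slc40a1 site. Likeness here is over 2 lists only.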

How the data were processed

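The files are 1 summit list per ChIP library, with 5 columns and no header. Column 5 holds the deposited score, a −log10 p-value or q-value from the authors' peak calling. Which of these it is, the threshold and the use of the input are not stated in the labels. Per the submitters' processing notes, the tools included MACS2 (version 2.1.1.20160309), Bowtie2 (2.2.9) and bcl2fastq (2.16.0.10), with build mm9. Positions are 1-based. Summits within 100 bp of one another were called shared, and ties took the better rank. In simulated lists with known partners the matching returned the number put in, which checks the code and says nothing about the real lists. With 1 library per condition no test was made. Members and lists were chosen with earlier results of these data known. The text names every summit in the windows, the nearest summits outside, and the 2 shared sites (with ties) most like each member in rank. The other iron and heme genes were not looked up in the lists, as that needs mm9 coordinates. Promoter sequences and gene neighbours come from RefSeq tables of GRCm38.p6. The RefSeq promoter table matched 2 of the 4 genes. Alternatives were score minimums, window widths, match and joining distances and a shortened DEM list. Python 3.11.15, numpy 2.4.6, pandas 2.3.3 and matplotlib 3.10.9 were used.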

Additional observations from a re-analysis of the deposited data

How the results depend on the processing

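Of 54 alternative values, 52 stayed within 1.5 times the reported count or, for ranks, inside the exact (Clopper-Pearson) 95% interval of the rank as a share of its list. The 2 that moved were the counts of summits in the windows. With windows of 0.5 times the width, 3 vehicle and 3 DEM summits were left, since both Slc40a1 sites lie far from the window centre. The number of gene windows with a summit then fell from 4 to 3 in each list. This loss of Slc40a1 stayed within the limit of 1.5 times and is counted among the 52. The interval used for ranks is a yardstick and not an error of a rank, and joining close summits left every rank in the full lists unchanged. Joining had little room to act: it met only DEM pairs 408 and 442 bp apart, and the closest vehicle pair was 5746 bp apart. Ranks made up 30 of the 54 values and all 30 stayed within limits, so the total of 52 says little about how firm they are. Windows of 2 times the width added 0 summits. A score of at least 10 removed only the second Slc40a1 site, from the vehicle list. With this minimum in both lists, 4 instead of 5 DEM window summits had a vehicle partner, so that the partner of the second Slc40a1 site depends on a low vehicle score. No paired analysis was possible because neither vehicle nor DEM has a second library. Leaving out a replicate was not an option either. The unknown depth limits every score and every absence of a call.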

Other observations

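Of 16 other genes of iron and heme handling, 11 had a stretch before a gene start in the RefSeq table. TGACNNNGC, on either strand, stood in a stretch of 3 of them, and 10.2% of all stretches in the table hold it. These were Blvra, which encodes a biliverdin reductase of heme breakdown, Flvcr1, described as a heme exporter, and Ncoa4, the receptor that delivers ferritin to lysosomes. Blvra was the only one of the 11 in which an A followed this core. Genes with more than 1 listed start had more chances of a match, and whether a summit lies near these genes was not analysed here.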
